A study of Saccharomyces cerevisiae with 4 samples.

Results

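The genes described are the 10 of inositol and phospholipid synthesis named *INO1*, *ITR1*, *CHO1*, *PSD1*, *PSD2*, *CHO2*, *OPI3*, *INO2*, *INO4* and *OPI1*. They were chosen by gene symbol in the array annotation, and all 10 were found, with 1 probe each, among 6226 features tested, of which 4060 carry a symbol. Transcripts were read on 4 arrays of a single colour, 2 of the sch9-deleted strain and 2 of the control strain 59A, which the labels call biological replicates 1 and 2. 59A is a haploid derived from a spore of the wine yeast EC1118, and in the mutant a KanMX cassette replaces the *SCH9* reading frame, so the strains share every other allele that the sources give. The sources used here do not give the number of mutant clones. Both strains were precultured for 24 h at 28°C and then fermented without oxygen at 24°C in synthetic must with 230 g/L glucose and fructose, 142 mg/L assimilable nitrogen and 5% lipid factors, that is ergosterol and oleic acid. The labels give this nitrogen content, while the methods name a medium with less nitrogen beside it for the arrays, and which arrays that would concern is not stated. Cells were taken from both strains at the same release of CO2, and the methods list myo-inositol among the components of the medium. The comparison asks which transcripts depend on Sch9p, a protein kinase downstream of TORC1, when lipids limit growth.

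In yeast, inositol is made from glucose 6-phosphate by the product of *INO1* or taken up by the transporters Itr1p and Itr2p, and it is joined to CDP-diacylglycerol to form phosphatidylinositol. The same CDP-diacylglycerol gives phosphatidylserine, which is decarboxylated to phosphatidylethanolamine and then methylated stepwise to phosphatidylcholine. Many of these genes carry a binding site for the activator pair Ino2p and Ino4p in their promoters. The repressor Opi1p is held at the endoplasmic reticulum by phosphatidic acid and the membrane protein Scs2p, and enters the nucleus when phosphatidic acid is consumed after inositol is supplied.

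The deleted gene *SCH9* read 5.81 and 5.67 on the log2 intensity scale in the sch9-deleted strain, against 8.72 and 8.67 in 59A, with replicate 1 given before replicate 2 here and below. The mutant values lay above only 6.02% and 1.38% of the features on their arrays, so its log FC of -2.96 (standard error, SE, 0.08, and adjusted p = 1.32e-04 by limma) was measured against a signal near the bottom of the scale. The log FC is the mean log2 intensity of the sch9-deleted strain minus that of 59A, and a gene is called higher or lower at an adjusted p under 0.05. The array medians lay between 8.52 and 8.53. The difference between replicates had a standard deviation over all features of 0.135 in the sch9-deleted strain and of 0.236 in 59A. Precision is limited throughout by how few arrays there are. Of the markers of mating type, the 7 genes specific to a cells were higher in the mutant, between 9.06 and 12.5 on its arrays and between 6.53 and 10.9 on those of 59A, while of 4 genes specific to alpha cells *STE3* stayed at 5.74 and 5.69 in the sch9-deleted strain and at 5.72 on both arrays of 59A, and 3 were higher in the mutant. The higher alpha-specific genes were *SAG1* (log FC 2.38), *MF(ALPHA)2* (1.15) and *MF(ALPHA)1* (0.32). *MF(ALPHA)1* lay near the bottom of the scale, at 5.94 and 5.89 in the mutant and 5.59 on both arrays of 59A. *MF(ALPHA)2* had 7.01 and 7.06 in the mutant, and 5.89 and 5.88, also near the bottom, in 59A. Of 7 haploid-specific genes 3 were higher and 0 lower, where 14.6% and 12.1% of all features were. The part of mating type expression in the results below was not tested.

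Few genes of the core pathway passed the test in the sch9 mutant. *INO2* was higher, 0 of the 10 genes were lower and the other 9 missed the threshold. Over all features 12.1% were lower and 14.6% higher, 26.7% in either direction, so the 1 call in 10 genes was not above the background. With the criterion of the methods, which adds a log FC beyond 1 in size, 0 of the 10 passed, against 1.64% of all features downwards and 2.18% upwards. The log FC of the 10 genes ran from -0.22 in *CHO2* to 0.38 in *INO2*, with a median of -0.03, and that of all features had a median of -0.01. Their median size without sign was 0.19, as was that of all features. The 95% intervals of the 10 log FC lay between -0.54 and 0.66, so none of them reached a log FC of 1 in size in either direction. The arrays of the strains were apart in 5 of the 10 genes, 2 lower and 3 higher, whereas 35.8% and 33.7% of all features were apart in these directions.

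**Figure D1:**
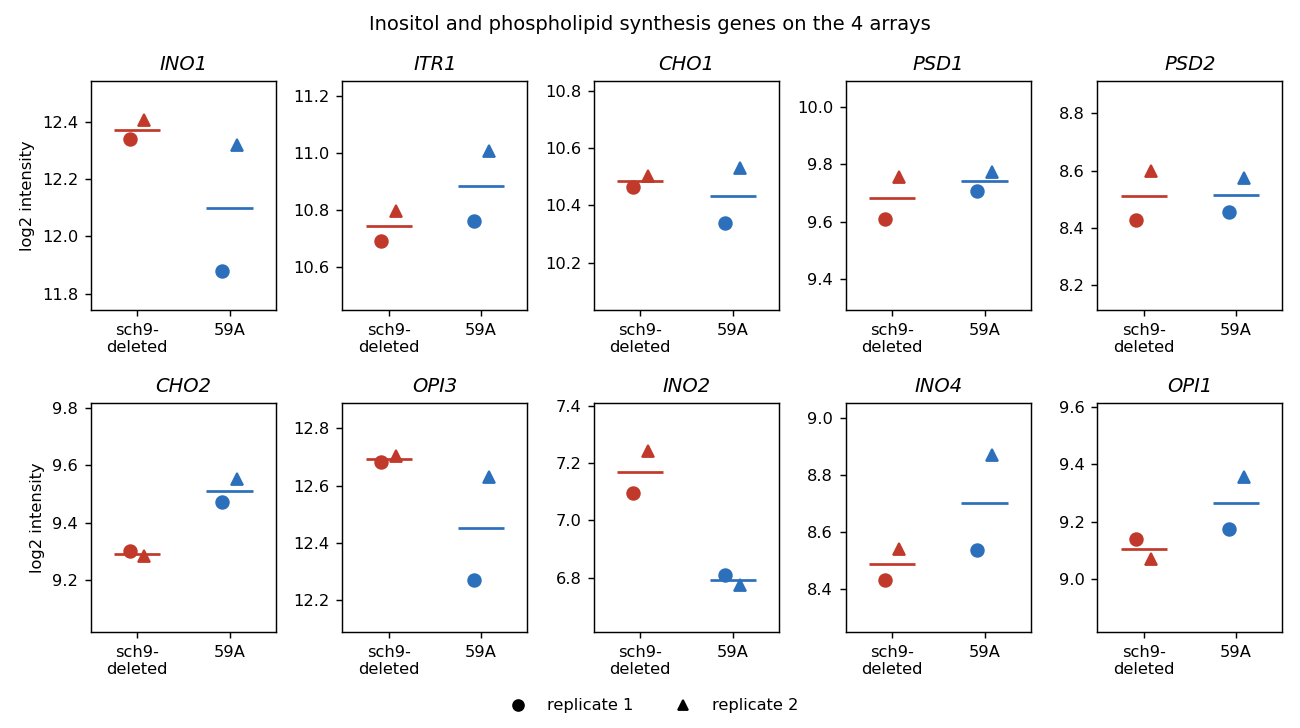
Log2 intensity of each of the 10 genes (vertical axis, in log2 units, with the same span in every panel) on the arrays of the sch9-deleted strain (red) and of 59A (blue), with circles for replicate 1, triangles for replicate 2 and a line at the mean of each strain. The arrays of the strains are apart in *INO1*, *OPI3* and *INO2*, higher in the mutant, and in *CHO2* and *OPI1*, lower in the mutant.

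Among the genes of inositol supply, *INO1* encodes inositol 3-phosphate synthase, the first and rate-limiting enzyme of inositol synthesis. It had log2 intensities of 12.34 and 12.40 in the sch9-deleted strain, against 11.88 and 12.32 in 59A. Both mutant arrays were above both of 59A, but replicate 2 of 59A lay close to the mutant and replicate 1 well below. The log FC of *INO1* was 0.27 (SE 0.15, 95% interval -0.11 to 0.66, adjusted p = 0.234 from limma), smaller than the difference of 0.44 between the 2 arrays of 59A. Without replicate 2 of 59A the log FC of *INO1* was 0.49 (adjusted p = 0.0051), and without replicate 1 it was 0.05 (adjusted p = 0.626). In such fits the strain with a lone array is assumed to vary like the other strain, from which the spread is taken. *ITR1*, the main myo-inositol transporter of the plasma membrane, had 10.69 and 10.80 in the sch9-deleted strain and 10.76 and 11.01 in 59A. The strains overlapped here, with a log FC of -0.14 (SE 0.11, 95% interval -0.41 to 0.13, adjusted p = 0.384).

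*CHO1*, *PSD1* and *PSD2* stand at the start of the branch that leads from CDP-diacylglycerol through phosphatidylserine to phosphatidylethanolamine. *CHO1*, the phosphatidylserine synthase, had 10.46 and 10.50 in the sch9-deleted strain, both of which fell between the 10.34 and 10.53 of 59A. Its log FC was 0.05 (95% interval -0.18 to 0.28). *PSD1*, the phosphatidylserine decarboxylase of the inner mitochondrial membrane, had 9.61 and 9.76 in the sch9-deleted strain and 9.71 and 9.77 in 59A. The strains overlapped, at a log FC of -0.06 (95% interval -0.28 to 0.16). *PSD2*, the decarboxylase of the endosomal and Golgi membranes, had 8.43 and 8.60 in the mutant and 8.45 and 8.57 in 59A, so that the 59A values fell between those of the mutant, and its log FC was -0.001 (95% interval -0.24 to 0.24). None of these 3 genes had an adjusted p below 0.649 (limma).

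The methylation of phosphatidylethanolamine to phosphatidylcholine is carried out by Cho2p, which adds the first methyl group, and by Opi3p, which adds those that follow. *CHO2* had 9.30 and 9.28 in the sch9-deleted strain, below the 9.47 and 9.55 of 59A. Its log FC was -0.22 (SE 0.07, 95% interval -0.41 to -0.03), with an adjusted p of 0.083 and an unadjusted p of 0.029 from limma, and was -0.26 (adjusted p = 0.0415) without replicate 1 of 59A and -0.18 (adjusted p = 0.108) without replicate 2. *OPI3* had 12.68 and 12.70 in the sch9-deleted strain, above the 12.27 and 12.63 of 59A. Its log FC was 0.24 (SE 0.13, 95% interval -0.09 to 0.57, adjusted p = 0.219). As in *INO1*, replicate 2 of 59A lay close to the mutant, and the log FC of *OPI3* was 0.42 (adjusted p = 0.00744) without it and 0.06 (adjusted p = 0.548) without replicate 1 of 59A. The difference between the responses of *CHO2* and *OPI3* was not tested.

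Of the regulators, *INO2*, which encodes the activating partner of the Ino2p-Ino4p dimer, was the 1 gene of the 10 that passed the test. It had log2 intensities of 7.09 and 7.24 in the sch9-deleted strain, above the 6.81 and 6.78 of 59A. *INO2* was higher by a log FC of 0.38 (SE 0.08, 95% interval 0.16 to 0.59, adjusted p = 0.0298 from limma), which is 1.30-fold on the linear scale. Its signal was weak, above 20.7% and 22.9% of the features on the mutant arrays and above 17.6% and 17.1% on those of 59A. The call was lost without either array of the mutant, at a log FC of 0.45 (adjusted p = 0.104) without replicate 1 and of 0.30 (adjusted p = 0.286) without replicate 2, and with slide position as a covariate (0.34, adjusted p = 0.0855).

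*INO4*, which encodes the constitutively made partner of Ino2p, had 8.43 and 8.54 in the sch9-deleted strain and 8.54 and 8.87 in 59A. The strains overlapped, since replicate 2 of the mutant lay just above replicate 1 of 59A. The log FC of *INO4* was -0.21 (SE 0.13, 95% interval -0.54 to 0.11, adjusted p = 0.263), and it was -0.38 (adjusted p = 0.0189) without replicate 1 of 59A and -0.05 (adjusted p = 0.687) without replicate 2. The repressor gene *OPI1* had 9.14 and 9.07 in the sch9-deleted strain, below the 9.18 and 9.36 of 59A, with a log FC of -0.16 (SE 0.09, 95% interval -0.39 to 0.07, adjusted p = 0.243). The smallest p that a two-sided exact permutation of 4 arrays allows is 0.333, which was reached by *INO1*, *OPI3*, *INO2*, *CHO2* and *OPI1*.

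**Figure D2:**
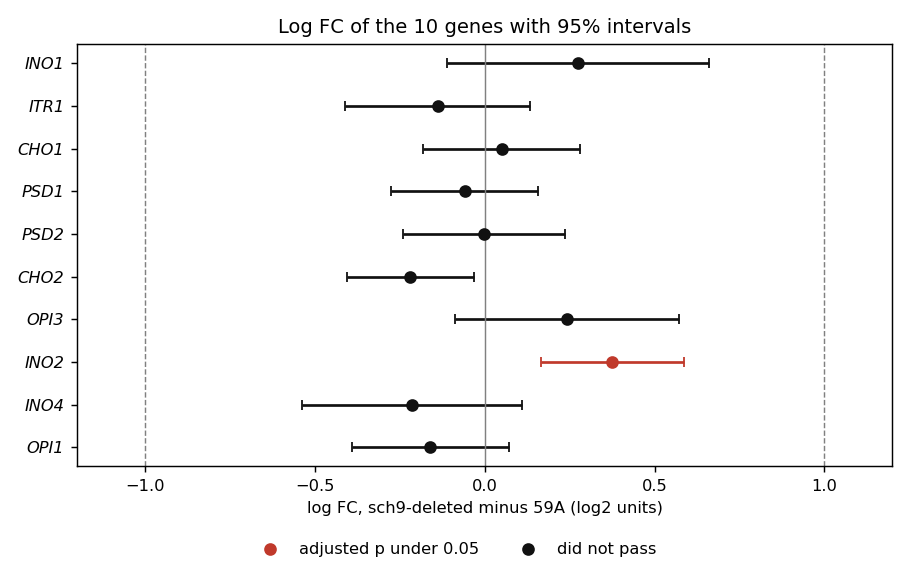
Log FC of the 10 genes (horizontal axis, sch9-deleted minus 59A in log2 units) with the 95% interval of the limma fit. *INO2*, in red, is the gene with an adjusted p under 0.05, and no interval reaches the dashed lines at a log FC of 1 in size.

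The replicates of 59A differed in these genes, and in the same direction in nearly all of them. Replicate 1 of the sch9-deleted strain was below replicate 2 in 8 of the 10 genes, with a median difference of -0.08, and replicate 1 of 59A was below replicate 2 in 9 of the 10, with a median difference of -0.18. Over all features replicate 1 was the lower in 57.5% in the mutant and in 55.4% in 59A, with median differences of -0.02 and -0.02. In 59A the gap was widest in *INO1* (-0.44), *OPI3* (-0.36), *INO4* (-0.33) and *ITR1* (-0.25), whereas *INO2* had 0.03. In the sch9-deleted strain these genes had -0.06 (*INO1*), -0.02 (*OPI3*), -0.11 (*INO4*), -0.10 (*ITR1*) and -0.15 (*INO2*). The replicates of 59A lay at positions 6 and 1 of the slide and those of the mutant at positions 4 and 7, so for each strain replicate number and position cannot be told apart.

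**Figure D3:**
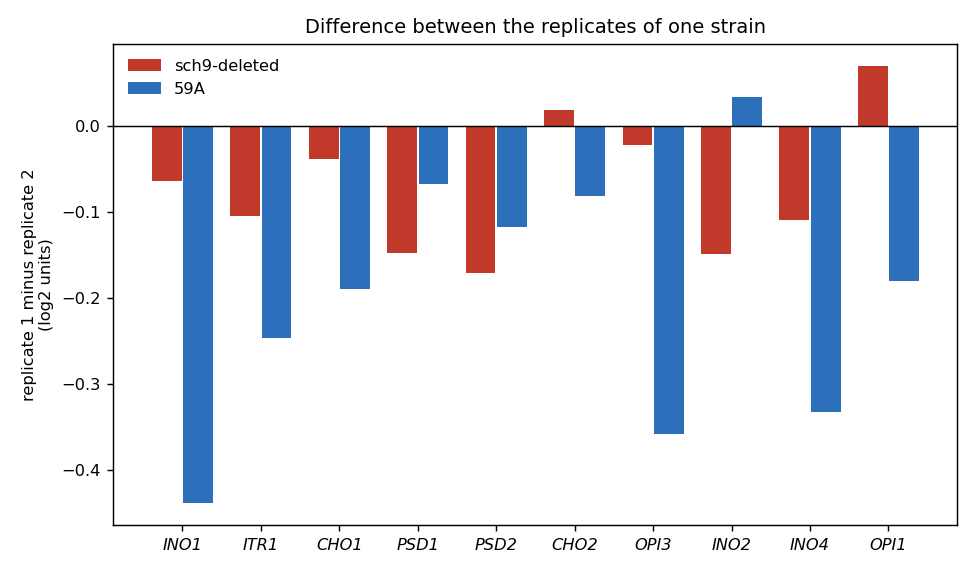
Log2 intensity of replicate 1 minus that of replicate 2 within the sch9-deleted strain (red) and within 59A (blue) for each of the 10 genes. In 59A the bars point down in 9 genes, to -0.44 in *INO1*, and in the mutant in 8.

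**Figure D4:**
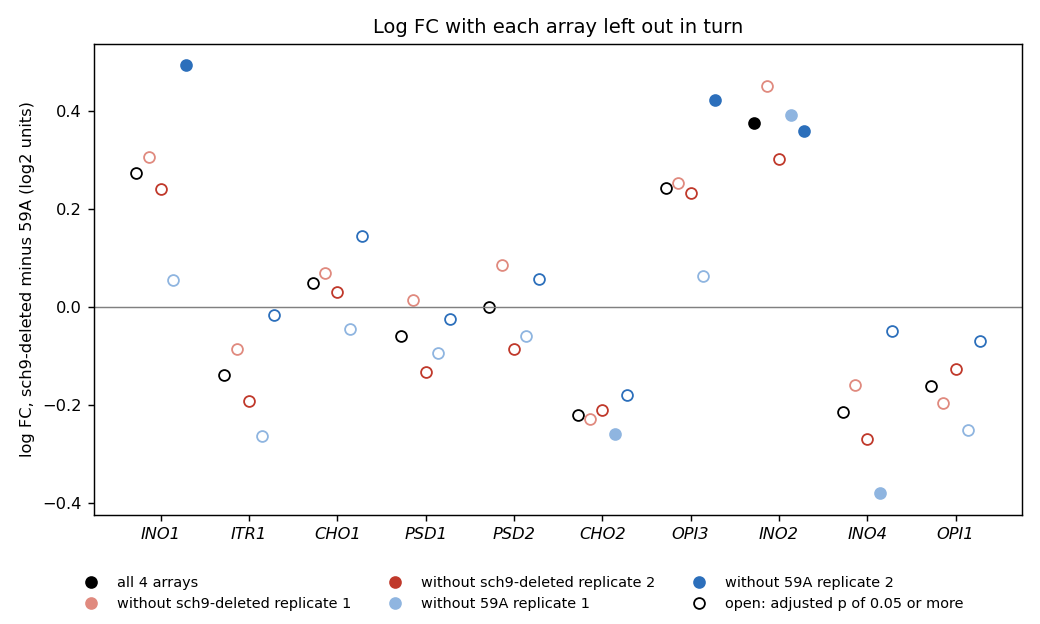
Log FC of each of the 10 genes with all 4 arrays (black) and with each array left out in turn, without arrays of the sch9-deleted strain in red and of 59A in blue. Filled points have an adjusted p under 0.05, which *INO1* and *OPI3* reached without replicate 2 of 59A, *CHO2* and *INO4* without replicate 1 of 59A, and *INO2* with all arrays and without either array of 59A.

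The genes whose 4 log2 intensities, centred on their own mean, lay nearest to those of *INO1* were *MPD1*, *SLA1* and *COX14*, at root mean square distances of 0.0284, 0.0305 and 0.0314 log2 units over the 4 arrays. *MPD1*, for instance, had 7.52 and 7.65 in the sch9-deleted strain and 7.13 and 7.52 in 59A. Their profiles were chosen for this likeness.

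Of 58 other genes of phospholipid metabolism that were listed, 46 were matched to a probe and the other 12 were not analysed here. All features include 2166 unnamed probes, and the lists were chosen with earlier results of these data known. Among these 46 the test called 10 lower (21.7%, against 12.1% of all features) and 13 higher (28.3%, against 14.6%), and 23 missed the threshold. Their median size of log FC without sign was 0.34, against 0.19 over all features, and the difference from the 10 core genes was not tested. Only *INM1*, *DPP1*, *HNM1*, *SAM2* and *ADO1* stayed lower when slide position was a covariate. *APP1*, *PLB1*, *PLB2*, *PLB3* and *SCS2* stayed higher in that fit, and the other calls among the 46 were lost. Leaving out replicate 1 of the mutant left 4 genes lower and 1 higher, and leaving out its replicate 2 left 1 lower and 1 higher, in fits whose spread came from 59A alone. *HNM1* and *PLB3* passed in every fit with an array left out.

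**Figure D5:**
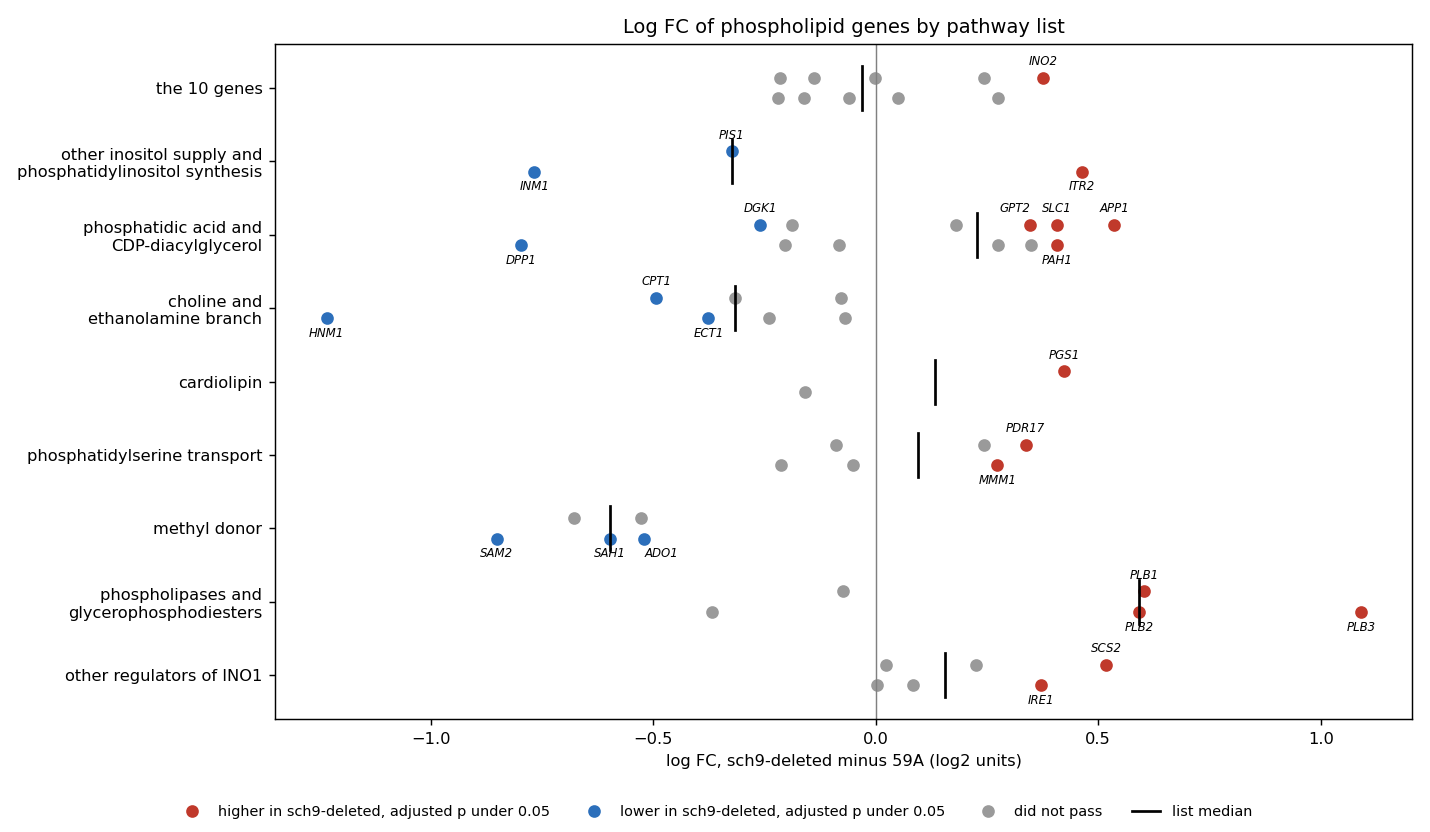
Log FC (horizontal axis, sch9-deleted minus 59A in log2 units) of the 10 genes and of 46 other genes of phospholipid metabolism by list, with red and blue points for genes called higher and lower, grey for those that did not pass and a black line at the median of each list. The 10 genes lie between -0.22 and 0.38, while *HNM1* lies at -1.23 and *PLB3* at 1.09.

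Inositol supply beyond the core went both ways. *INM1*, an inositol monophosphatase that acts one step after *INO1*, had 9.42 and 9.41 in the sch9-deleted strain, against 10.04 and 10.33 in 59A. It was lower by a log FC of -0.77 (SE 0.11, adjusted p = 0.0107 from limma). *ITR2*, the minor inositol transporter gene, had 9.48 and 9.45 in the mutant and 9.17 and 8.83 in 59A, a log FC of 0.46 (SE 0.12, adjusted p = 0.0471) where *ITR1* had -0.14. The 2 transporter genes are close relatives and may share signal on a probe, and the difference between them was not tested. *PIS1*, phosphatidylinositol synthase, had 10.91 and 10.87 in the sch9-deleted strain and 11.17 and 11.26 in 59A, a log FC of -0.32 (SE 0.08, adjusted p = 0.0342). Without replicate 1 and without replicate 2 of the mutant the log FC was -0.77 and -0.76 in *INM1*, 0.45 and 0.48 in *ITR2* and -0.35 and -0.30 in *PIS1*, and none of the 3 genes passed with the spread of 59A alone.

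In the synthesis and turnover of phosphatidic acid, 12 genes were measured, with a median log FC of 0.23. The test called 2 of them lower (16.7%, against 12.1% of all features) and 4 higher (33.3%, against 14.6%), and 6 missed the threshold. *DPP1*, which encodes a diacylglycerol pyrophosphate phosphatase of the vacuole membrane, had 9.02 and 8.89 in the sch9-deleted strain, against 9.76 and 9.74 in 59A, and was lower by a log FC of -0.80 (SE 0.08, adjusted p = 0.00400). Higher were *APP1*, an actin-associated phosphatidic acid phosphatase, with a log FC of 0.54, and *SLC1*, which acylates lysophosphatidic acid, with 0.41. *PAH1*, named *SMP2* on the array, encodes the phosphatidic acid phosphatase that forms diacylglycerol. It had 11.30 and 11.31 in the sch9-deleted strain and 10.92 and 10.88 in 59A, a log FC of 0.41 (SE 0.07, adjusted p = 0.0163). Among those that did not pass, *NEM1*, a phosphatase that activates Pah1p, had 0.35 and *SCT1*, a glycerol 3-phosphate acyltransferase, had 0.27. The genes of this list that follow were named after their values were seen. *DGK1*, named *HSD1* on the array, encodes the diacylglycerol kinase that opposes Pah1p. It was the other lower gene, with 9.83 and 9.82 in the mutant, against 10.10 and 10.07 in 59A, a log FC of -0.26 (adjusted p = 0.0484), between -0.28 and -0.24 under every alternative run. The call was lost under 9 of these, among them repeated quantile normalisation (adjusted p = 0.051) and slide position as a covariate (adjusted p = 0.124). *GPT2*, the paralogue of *SCT1*, was higher at 0.35 (adjusted p = 0.0326), and *CDS1*, the CDP-diacylglycerol synthase, had -0.19 (adjusted p = 0.114). *LPP1* had -0.20 (adjusted p = 0.104), *SPO7* -0.08 (adjusted p = 0.423) and *AYR1* 0.18 (adjusted p = 0.360). A shift between phosphatidic acid and diacylglycerol was not tested.

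Of the choline and ethanolamine branch, which makes phosphatidylcholine and phosphatidylethanolamine from imported or recycled head groups, all 7 log FC were below 0, from -1.23 to -0.07. The test called 3 of the 7 genes lower and 0 higher, where 12.1% and 14.6% of all features were called. *HNM1*, the choline transporter gene, had 9.87 and 9.73 in the sch9-deleted strain, well below the 11.14 and 10.93 of 59A. Its log FC of -1.23 (SE 0.10, adjusted p = 0.00259 from limma) was the largest in size among the 46 genes. *CPT1*, cholinephosphotransferase, had -0.49 (SE 0.12, adjusted p = 0.0400) and *ECT1*, the cytidylyl transferase for phosphoethanolamine, named *MUQ1* on the array, had -0.38 (SE 0.09, adjusted p = 0.0348). The ethanolamine kinase gene *EKI1* had -0.32 (adjusted p = 0.0606) and the choline kinase gene *CKI1*, named after its values were seen, had -0.08 (adjusted p = 0.542). *PCT1*, the choline counterpart of *ECT1*, had -0.24 (adjusted p = 0.087).

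Of 5 genes that make the methyl donor of Cho2p and Opi3p or clear what is left of it 3 were lower and 2 did not pass, where 12.1% of all features were lower. Their log FC ran from -0.85 to -0.52, with a median of -0.60. *SAM2*, an S-adenosylmethionine synthetase, had 11.46 and 11.18 in the sch9-deleted strain and 12.21 and 12.14 in 59A, a log FC of -0.85 (SE 0.11, adjusted p = 0.00812). *SAH1*, which hydrolyses the S-adenosylhomocysteine left by each methyl transfer, had -0.60 (SE 0.12, adjusted p = 0.0243), and *ADO1*, adenosine kinase, had -0.52 (SE 0.08, adjusted p = 0.0125). The methionine synthase gene *MET6* had -0.68 (adjusted p = 0.0863) and *SAM1* had -0.53 (adjusted p = 0.120). Both values depended on the array of 59A used. Without its replicate 2 *MET6* had -1.01 (adjusted p = 0.00218) and *SAM1* -0.83 (adjusted p = 0.00298), and without its replicate 1 they had -0.34 (adjusted p = 0.072) and -0.23 (adjusted p = 0.159). In *MET6* the arrays of 59A were at 11.17 and 10.49, against 10.28 and 10.02 in the mutant. *SAM1* and *SAM2* are closely related genes whose signals may be mixed. Replicate 1 was above replicate 2 in all 5 genes in both strains, the opposite order to that of most of the 10 core genes.

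Of 5 measured genes of phospholipases and glycerophosphodiesters 3 were higher (60%, against 14.6% of all features) and 2 did not pass. The 3 were the phospholipase B genes, whose products remove both fatty acids from phospholipids outside the cell. *PLB3* had 11.68 and 11.59 in the sch9-deleted strain, against 10.61 and 10.48 in 59A, and was higher by a log FC of 1.09 (SE 0.09, adjusted p = 0.00208 from limma). *PLB1* had 11.33 and 11.39 in the mutant and 10.73 and 10.78 in 59A, a log FC of 0.60 (SE 0.07, adjusted p = 0.00651), and *PLB2* had 0.59 (SE 0.08, adjusted p = 0.00801). These 3 genes are related in sequence and may share signal. *GIT1*, the transporter of glycerophosphoinositol, had -0.37 (adjusted p = 0.0611) and the phospholipase D gene *SPO14* had -0.07.

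In the lists that remain, the genes that passed were higher, where 14.6% of all features were higher and 12.1% lower. For cardiolipin 2 of 5 listed genes were measured, of which 1 was higher and 0 lower. *PGS1*, which makes phosphatidylglycerol phosphate on the way to cardiolipin, had a log FC of 0.42 (SE 0.08, adjusted p = 0.0182), while the cardiolipin synthase gene *CRD1* had -0.16. Of 6 genes of phosphatidylserine transport, 2 were higher, *PDR17*, needed for the supply of Psd2p with its substrate, at 0.34 (adjusted p = 0.0321) and *MMM1*, a tether between endoplasmic reticulum and mitochondria, at 0.27 (adjusted p = 0.0484, and 0.0531 after median centring and 0.139 with slide position as a covariate). In the same list *MDM34*, named *MMM2* on the array, had 0.24 and *MDM10* -0.21 without passing. Of 6 further regulators of *INO1* 2 were higher and 0 lower. *SCS2*, the membrane anchor of Opi1p, had 10.75 and 10.83 in the sch9-deleted strain, above the 10.24 and 10.30 of 59A. Its log FC was 0.52 (SE 0.08, adjusted p = 0.0107). *IRE1*, the sensor of unfolded proteins that is needed for growth without inositol, had 7.67 and 7.71 in the mutant and 7.32 and 7.32 in 59A, a log FC of 0.37 (SE 0.07, adjusted p = 0.0206). Like *MMM1*, the genes *PGS1* (adjusted p = 0.0573), *PDR17* (0.098) and *IRE1* (0.0651) did not pass with slide position as a covariate. The corepressor gene *SIN3* had 0.23 (adjusted p = 0.0715) and *RPD3*, the histone deacetylase gene of the same complex, had 0.08. *HAC1* (0.02) and *UME6* (0.004), named after their values were seen, did not pass either. In RNA from whole cultures, fewer cells that express a gene and less of its RNA per cell cannot be told apart.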

How the data were processed

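Gene expression was measured on 4 Agilent one-colour yeast arrays, all on slide 1. The authors labelled total RNA with Cy3, read the spots with GenePix and applied quantile normalisation across arrays (limma, R 2.14.2). They deposited log2 intensities, 6227 probes with 0 missing values. The log2 scale was inferred from the range of values and from the methods. For background correction, spot flags and repeated spots, the step taken was not given in the sources used here. Of the probes 4061 have 1 symbol, 0 have several and 2166 are unnamed here. Names were matched through the RefSeq annotation of assembly R64, and 4056 symbols were found in it.

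The probes of 1 gene were averaged, and the sch9-deleted strain minus 59A was tested by lmFit and eBayes (limma 3.58.1, R 4.3.3, prior degrees of freedom 3.29), with Benjamini-Hochberg adjustment over 6226 features. Intervals are those of the fit, not adjusted for the number of genes. The genes and lists were chosen with earlier results of these data known. The text names *SCH9*, the 10 genes, up to 4 passing and up to 2 other genes of each list by size of log FC, and the 3 genes nearest to *INO1*. Outside this rule are the mating type markers and the genes said above to be named after their values were seen. The fit was tested on simulated data. It called 28 of 50 features given a log2 change of 0.5, 38 of 50 given 1, and 10 of 6026 given 0. Most simulated features thus had no change, whereas 26.7% of the real features were called. Changes between 0 and 0.5, where the log FC of the 10 genes lie in size, were not simulated. The labels do not say that replicates came from separate fermentations, so p-values measure only the spread between these samples. The 16 alternatives comprised thresholds, scalings, filters, eBayes settings, slide position, the replicate block and each array left out. Figures used Python 3.11.15 and matplotlib 3.10.9.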

Additional observations from a re-analysis of the deposited data

How the results depend on the processing

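Under the 3 other scalings, the intensity trend and robust hyperparameters, the number of the 10 genes called did not change. Use of the brightest probe could not change the log FC of these genes, which have 1 probe each. With unadjusted p-values 1 of the 10 genes was lower (*CHO2*), 17 of the 46 pathway genes were lower and 16 higher, and 1307 of all features were lower and 1313 higher. With treat against a log2 fold change of 0.5, 0 of the 10 genes were higher, 1 pathway gene was lower and 1 higher, and 34 features were lower and 136 higher in all. When the dimmest 0.25 of features were dropped, *INO2* was not tested and 0 of the 10 were higher. With slide position as a covariate 0 of the 10 were higher, 5 pathway genes were lower and 5 higher, and 445 and 586 of all features were. Without the fold threshold 1 of the 10 genes passed, against 0 with it. With each array left out in turn, the number of the 10 genes called lower ran from 0 to 2 (2 without replicate 1 of 59A) and that called higher from 0 to 3 (3 without replicate 2 of 59A, 0 without either array of the mutant). Pathway genes lower ran from 1 to 12 and higher from 1 to 15, and all features lower from 58 to 1268 and higher from 179 to 1313. Over all features the lowest counts were those without replicate 2 of the sch9-deleted strain. The deviations of same-numbered replicates were correlated across features (r = 0.531, genes not being independent). Over the 10 genes r was -0.242, with the same sign in 7. The labels give only the number, and with 2 pairs what same-numbered replicates share cannot be told. In a fit with a replicate block *INO2* (adjusted p = 0.00811) was the 1 gene of the 10 that was higher and 0 were lower, 15 pathway genes were lower and 15 higher, *MET6* (adjusted p = 0.00135) and *SAM1* (adjusted p = 0.00399) among the lower ones, and 1311 of all features were lower and 1238 higher.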
